A study of Rattus norvegicus with 6 samples.

Results

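Calcb, Scg2 and Gal are 3 of the 32552 genes counted in RNA from primary rat oligodendrocytes (OLs), and they encode neuropeptide and secretory granule proteins. They were followed here by their Ensembl identifiers (ENSRNOG00000011074, ENSRNOG00000015055 and ENSRNOG00000015156). These genes were chosen by their lower expression on micropillars in these same libraries, so their difference between the groups is given below as a description, with no test.

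The study asked how an axon-like topography changes OLs grown without neurons. O4+ cells were sorted magnetically from the cortices of wild-type Sprague Dawley rats on postnatal days 6 to 7, with 2 neonates of mixed sex pooled per preparation, and were grown on polyacrylamide hydrogels of 50 kPa. The flat group (3 libraries) grew on hydrogels without features, and the micropillar group (3 libraries) on arrays of pillars 5 µm wide, 22 µm high and 10 µm apart. Poly(A) RNA was sequenced after differentiation over 10 days. Cells of both groups received a proliferation medium with platelet-derived growth factor AA for the first 2 days and then a myelination medium with the thyroid hormone T3, and both media contained forskolin, ciliary neurotrophic factor and neurotrophin-3. It is not stated whether the libraries came from separate preparations or from cultures of the same pooled cells, so p-values measure the spread between these libraries, which may be technical.

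Neuropeptides are made as larger precursors, cut in the secretory pathway, stored in dense-core granules and released on stimulation. Granins are acidic proteins that help to form these granules and are themselves cut into peptides. Both groups of proteins are best known from neurons and endocrine cells, whereas OLs are known for myelin proteins and lipids.

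Calcb encodes the beta form of calcitonin gene-related peptide (CGRP), a sensory neuropeptide that dilates blood vessels. On the Rnor6.0 genome the gene lies at chr1:184271590-184276475 on the plus strand, in 5 exonic stretches with 961 exonic bases. Scg2 encodes secretogranin II, a granin and the precursor of the peptide secretoneurin, and lies at chr9:85237458-85243001 on the minus strand, with 2409 exonic bases in 3 stretches. Gal encodes the precursor of galanin, a neuropeptide that acts on G-protein-coupled receptors, and lies at chr1:218652917-218657925 on the minus strand, with 844 exonic bases in 6 stretches. No annotated gene overlaps any of the 3 spans, so their counts share no exonic base with another gene.

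The RefSeq promoter set (GRCr8 build, 250 bases before to 50 bases after the start of a gene) held 2 of the 3 genes, Scg2 and Gal. Each sequence below is read in the direction of its gene, and is shown because the medium of both groups contained forskolin, which raises cyclic AMP, and because the capitals mark letters of promoter elements that were searched in all promoters of the set. In Scg2, they mark the cyclic AMP response element TGACGTCA. In Gal, they mark its core TGACG, named here the short site, and the TATA box TATAAA. The Scg2 stretch covers chr9:88256917-88257016 and ends 51 bases before the start, and the Gal stretch covers chr1:210084573-210084672 and ends 1 base before it, both on the minus strand of GRCr8.
Scg2: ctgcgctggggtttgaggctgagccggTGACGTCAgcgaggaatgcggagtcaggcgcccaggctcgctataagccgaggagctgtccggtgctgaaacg
Gal: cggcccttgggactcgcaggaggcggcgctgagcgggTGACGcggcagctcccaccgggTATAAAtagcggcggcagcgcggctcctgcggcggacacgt

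The full cyclic AMP response element of Scg2 began 123 bases before the start, and 1.91% of the 27457 promoters of the same length held these letters on either strand. Gal held 0 copies of the full element. Its short site, 63 bases before the start, is a common string found in 21.96% of promoters, and each full element also counts as a short site on both strands, as in Scg2. The TATA box letters of Gal lay 41 bases before the start and occurred in 14.3% of promoters, whereas Scg2 held none. The string ACGTG, the core of hypoxia response elements, was present in the Gal window on the other strand 5 bases before the start and in 19.7% of all promoters. The string CAGCACC, the left part of the RE1 element, was present once in Scg2 on the other strand, 62 bases before the start, and in 6.91% of promoters. The AP-1 letters TGANTCA occurred in 7.33% of promoters and in neither gene. These matches describe the letters in the windows and do not show that a factor binds there.

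The flat libraries held between 10645621 and 13681024 counts and the micropillar libraries between 14523168 and 15624525. The unit of the levels is CPM, where a gene's counts are divided by the size of the library (scaled by TMM in edgeR), with the mean ± SD of 3 libraries. Flat libraries differed more among themselves than micropillar libraries did. The variance between a pair of libraries was 26.7 to 42.0 times the sampling noise for flat libraries, 1.91 times for micropillar replicates 1 and 2, and 7.26 to 7.73 times for the other pairs of micropillar libraries.

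Calcb stood at 34.1, 40.3 and 35.3 CPM in flat replicates 1 to 3, and at 9.38, 11.3 and 10.5 CPM in micropillar replicates 1 to 3. Every flat library was high and every micropillar library low, and the lowest flat level was 3.01 times the highest micropillar level. The mean level was 36.6 ± 3.31 CPM on the flat and 10.4 ± 0.979 CPM on the micropillar hydrogels, a 3.52-fold lower level (log2 fold change −1.82, SE 0.13). The raw counts behind these levels were 441, 608 and 393 in the flat libraries and 138, 157 and 157 in the micropillar libraries.

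Scg2 had the most counts of the 3 genes. Its level was 48.4, 52.1 and 45.4 CPM in the flat libraries and 15.8, 17.3 and 18.3 CPM in the micropillar libraries. The groups were again apart, with the lowest flat level 2.48 times the highest micropillar level. The means were 48.6 ± 3.39 and 17.1 ± 1.29 CPM, 2.84-fold lower on micropillars (log2 fold change −1.51, SE 0.12). They rest on 625, 786 and 506 flat counts and on 232, 240 and 275 micropillar counts.

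Gal was the least counted of the 3 genes, at 17.7, 20.5 and 21.4 CPM in the flat and 5.44, 4.26 and 6.26 CPM in the micropillar libraries. The flat libraries lay close together, while micropillar replicate 2 was the lowest and replicate 3 the highest of their group, by a factor of 1.47. The means were 19.9 ± 1.93 and 5.32 ± 1.01 CPM, 3.73-fold lower on micropillars (log2 fold change −1.90, SE 0.18). Micropillar replicate 2 rests on 59 counts, and its exact 95% Poisson interval, which covers counting error only, was 3.24 to 5.49 CPM. This interval overlapped that of micropillar replicate 3, 5.06 to 7.66 CPM.

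**Figure D1:**
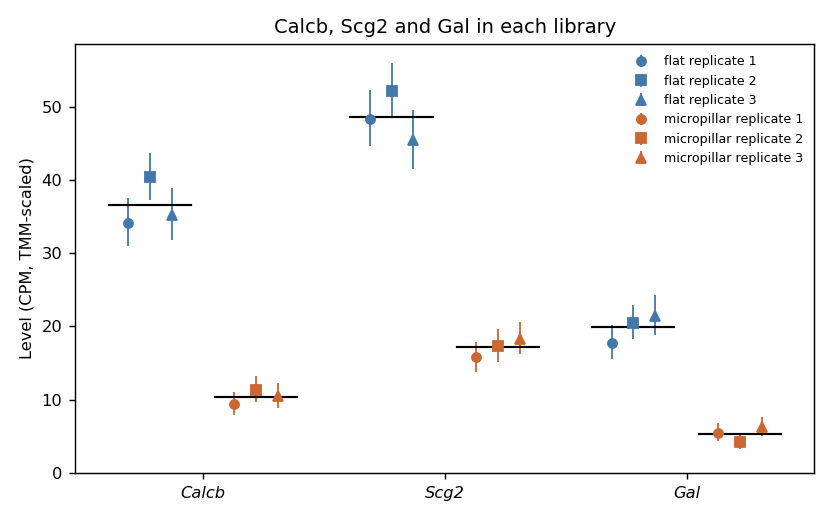
Level of Calcb, Scg2 and Gal in each library, in CPM on TMM-scaled library sizes. Points are single libraries with exact 95% Poisson intervals for counting error and black lines are group means. Flat libraries sit between 34.1 and 40.3 CPM for Calcb, 45.4 and 52.1 for Scg2 and 17.7 and 21.4 for Gal, all above the micropillar libraries.

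The same separation was present in the rlog values (log2 scale, shrunken) deposited by the authors. Calcb had rlog values of 8.54 to 8.69 in flat and 7.60 to 7.72 in micropillar libraries. For Scg2 they were 9.02 to 9.14 and 8.20 to 8.30, and for Gal 7.57 to 7.72 and 6.71 to 6.89. The differences on this scale are smaller than the fitted log2 fold changes because the rlog transform shrinks differences.

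By the quasi-likelihood test of edgeR, adjusted by Benjamini-Hochberg, 415 of 13163 genes tested (3.15%) were lower on micropillars (log2 fold change under −1, adjusted p under 0.05), and 475 (3.61%) were higher by the same limits. With library totals in place of TMM scaling, which shifted the median of the fitted log2 fold changes by −0.13, the numbers were 579 lower and 331 higher. All 3 genes passed the filter on low counts and are among the 415 lower genes, as the way they were chosen fixes. Every flat library was above every micropillar library in 2858 of the genes tested (21.7%), and this group also holds all 3. Among the 415 lower genes ordered by the size of the fold change, Gal was at rank 75, Calcb at 84 and Scg2 at 171. By the size of p they were the first of the 415, with Calcb at rank 1, Scg2 at 2 and Gal at 3, so the values that chose them include a small spread between replicates. The median log2 fold change of the lower genes was −1.41 and that of all genes tested was −0.02.

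**Figure D2:**
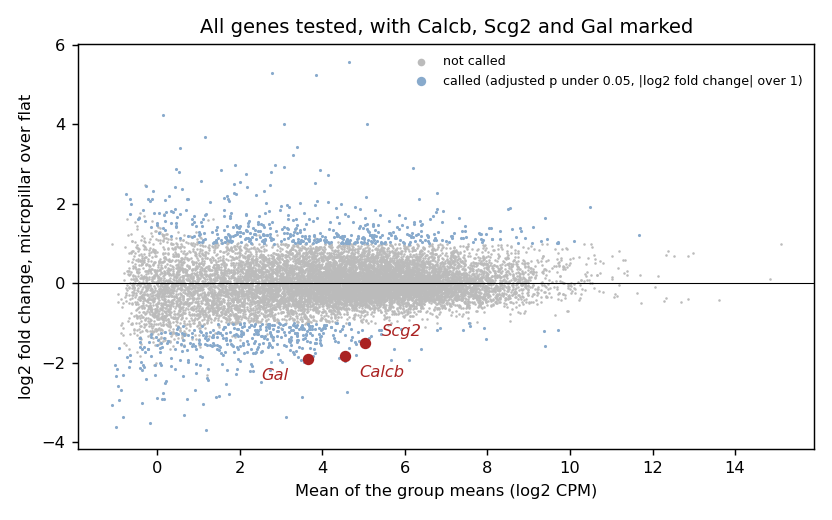
log2 fold change (micropillar over flat) of the 13163 genes tested against the mean of the group mean levels (log2 CPM). Blue points passed both limits (adjusted p under 0.05, log2 fold change beyond 1 in either direction), grey points are all others, and red points are Gal at −1.90, Calcb at −1.82 and Scg2 at −1.51.

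Levels between the genes were compared in TPM (transcripts relative to all transcripts of a library), which divide counts by exonic length. On this scale Calcb had the highest level of the 3 genes in each of the 6 libraries, with 74.7 ± 9.70 TPM on flat hydrogels and 21.2 ± 2.05 TPM on micropillars. Gal had 46.2 ± 5.48 and 12.3 ± 2.30 TPM, and Scg2, which has the most exonic bases, had 39.6 ± 4.09 and 13.9 ± 1.04 TPM. The order of Gal and Scg2 was not the same in the groups: Gal was the higher in all 3 flat libraries (1.05 to 1.35 times Scg2) and the lower in all 3 micropillar libraries (0.702 to 0.984 times), though in micropillar replicates 1 and 3 the ratios of 0.984 and 0.976 were close to equality.

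The flat TPM of all genes tested had a median of 17.3, and that of the lower genes a median of 5.64. Calcb was at the 83.3rd percentile of all genes tested by flat TPM and at the 54.0th by micropillar TPM. Gal went from the 74.1st to the 41.1st and Scg2 from the 70.7th to the 44.1st percentile. Among the 415 lower genes, 20 had a higher flat TPM than Calcb, 31 than Gal and 40 than Scg2. Thus the 3 genes had intermediate to upper levels on flat hydrogels and were near the middle of all genes tested on micropillars.

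The sum of the 3 genes was 146, 180 and 157 TPM in the flat libraries and 44.5, 47.3 and 50.6 TPM in the micropillar libraries. Calcb made up 46.5 ± 1.21% of this sum on flat hydrogels and 44.7 ± 3.85% on micropillars, and Gal 28.8 ± 2.23% and 26.0 ± 4.32%, both within the spread of the libraries. Scg2 made up 24.7 ± 1.47% and 29.4 ± 0.576%, and its micropillar shares (28.8 to 29.9%) lay above its flat shares (23.3 to 26.2%). The ratio of Calcb to Scg2 was 1.77, 1.94 and 1.95 in the flat and 1.49, 1.64 and 1.43 in the micropillar libraries, without overlap. These ratios come from the same contrast that chose the genes and were not tested.

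The spread within the groups belongs to the same contrast and is a description, since genes with the smallest p have a small spread. The highest flat CPM was 1.18 times the lowest for Calcb, 1.15 times for Scg2 and 1.21 times for Gal, against a median of 1.38 times for all genes tested. The SD of log2 CPM over the flat libraries was 0.13 for Calcb, 0.10 for Scg2 and 0.14 for Gal, with a median of 0.24 for all genes, and 19.5%, 12.8% and 23.5% of the genes tested had a smaller SD. On micropillars the SDs were 0.14, 0.11 and 0.27, with a median of 0.11 for all genes, and 82.2% of genes had a smaller SD than Gal. The coefficient of variation of Gal on micropillars was 18.9%, and counting error alone gives 11.3% at its counts.

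Markers that were not chosen in this way covered a wide range of flat spreads. Aqp4, an astrocytic water channel, Cspg4, a progenitor proteoglycan, and S100b had a highest flat CPM of 1.08, 1.11 and 1.16 times the lowest. For Calcb, Scg2 and Gal it was 1.18, 1.15 and 1.21 times. Among the 9 OL markers, the highest flat CPM was 1.58 times (Mbp, encoding myelin basic protein) to 4.56 times (Mobp, encoding an OL-specific myelin protein) the lowest. The summed OL marker level was 48079 to 85126 CPM in the flat and 93270 to 100897 CPM in the micropillar libraries, and none of the 9 markers was at 0. The labels name the cells OL progenitor cells, and the libraries hold myelin transcripts at high levels beside those of progenitors, whose markers Pdgfra and Cspg4 summed to 286 to 363 CPM in the flat and 280 to 316 CPM in the micropillar libraries.

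With the group means removed, the deviations of Calcb and Scg2 over the 6 libraries had a Pearson's r of 0.73, whereas those of Calcb and Gal had an r of −0.21 and those of Scg2 and Gal 0.091. These 6 values per gene share their libraries and depth and the coefficients are descriptions. Flat replicate 2 was the highest flat library for both Calcb and Scg2, and flat replicate 3 for Gal. Micropillar replicate 1 was the lowest micropillar library for Calcb and Scg2, and micropillar replicate 2 for Gal.

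The 74 other genes with a symbol are from those that the study lists from these samples, its most changed genes included. Among these 74, the gene most like Calcb in log2 CPM over the 6 libraries was Scg2 (r = 0.996), followed by Eomes (0.988) and Gal (0.971). For Scg2 the order was Calcb (0.996), Eomes (0.995) and Gal (0.978), and for Gal it was Eomes (0.991), Scg2 (0.978) and Calcb (0.971). An r over the 6 libraries mainly reflects the gap between the groups, and 280 of the other 13162 genes tested had an r over 0.95 with Calcb, 282 with Scg2 and 460 with Gal. Genes without a symbol that were more alike than the first named gene numbered 1 for Calcb, 1 for Scg2 and 28 for Gal. Eomes, a T-box transcription factor known from intermediate neuronal progenitors, had 22, 28 and 18 counts in the flat libraries and 6, 5 and 7 in the micropillar libraries. Its level fell from 1.72 ± 0.123 to 0.412 ± 0.0528 CPM (log2 fold change −2.04, SE 0.38, edgeR quasi-likelihood test, Benjamini-Hochberg adjusted p = 0.0054), and it was not tested where at least 10 counts were required in every library.

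Because the 3 genes are best known from neurons, the neuronal and neuronal precursor markers are given beside them, and all 4 markers were detected in each library. Summed over the list they reached 434 to 441 CPM in the flat and 517 to 553 CPM in the micropillar libraries, mostly from Tubb3 and Map2. In the same test, which called 26.7% of all genes at an adjusted p under 0.05 in either direction, 1 marker rose and 2 fell, with a median log2 fold change of −0.55 over the 4. Their part in the lower levels of Calcb, Scg2 and Gal was not tested, and in these bulk libraries fewer cells of a type and less RNA per cell cannot be told apart.

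The marker that rose was Tubb3, a beta-tubulin of neurons, from 174 ± 38.4 to 377 ± 9.35 CPM (edgeR, Benjamini-Hochberg adjusted p = 0.0020). The study also names Tubb3 among raised genes of cytoskeletal and lipid remodeling that it ties to myelin sheaths. Which cells the rise came from was not tested. Map2, a dendritic microtubule protein, fell from 260 ± 40.7 to 159 ± 11.2 CPM (log2 fold change −0.70, edgeR adjusted p = 0.0054), and Eomes was the other that fell. Rbfox3, the nuclear protein NeuN of mature neurons, was at 2.63 ± 0.401 and 2.00 ± 0.226 CPM (edgeR adjusted p = 0.34). Thus the markers that passed the test did not share a direction.

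**Figure D3:**
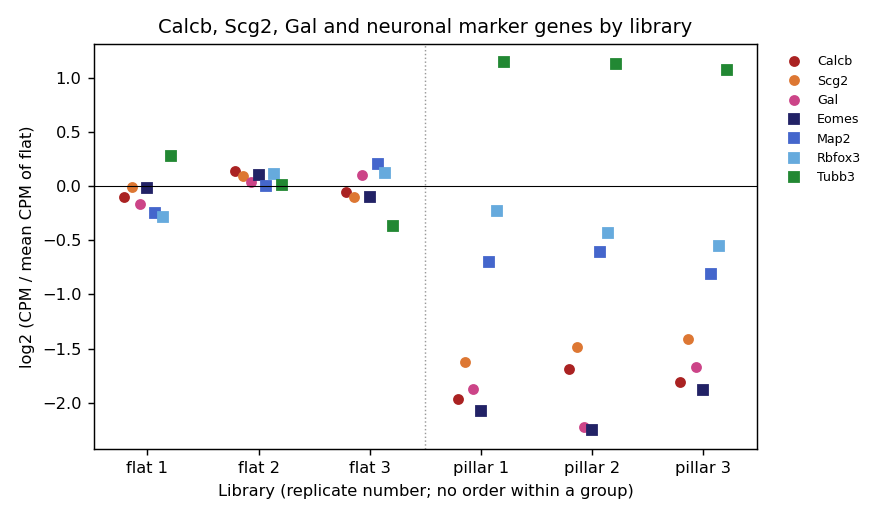
log2 of the CPM of each library over the mean CPM of the flat libraries, for Calcb, Scg2 and Gal (circles) and the 4 neuronal and neuronal precursor markers (squares), with libraries of a group in no order. Tubb3 lies above 0 in the 3 micropillar libraries, Map2 and Rbfox3 lie below 0 and Calcb, Scg2, Gal and Eomes lie lowest.

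Markers of other glia were read in the same way, beside 2014 higher and 1500 lower of all 13163 genes tested (26.7% in either direction). The 7 astrocyte markers summed to 1258 to 2041 CPM in the flat and 2205 to 2774 CPM in the micropillar libraries. This sum came mostly from Gfap, at 971 ± 316 and 1922 ± 237 CPM. Of the 7, 3 rose and 1 fell, Slc1a2 (71.2 ± 17.1 to 41.9 ± 0.876 CPM, edgeR adjusted p = 0.0092). The microglial marker Cx3cr1 was at 0.464 to 2.32 and 0.408 to 0.799 CPM (edgeR adjusted p = 0.11, but 0.013 without flat replicate 1). Of the OL markers, 5 of 9 rose and 0 fell, and of the progenitor markers Cspg4 rose while Pdgfra was at 275 ± 39.0 and 212 ± 19.2 CPM (edgeR adjusted p = 0.058, but 0.012 without flat replicate 1, 0.027 with library totals and 0.026 by DESeq2). Without flat replicate 2, Gja1 and S100b (adjusted p = 0.0037 and 0.036) brought the astrocyte markers that rose to 5, where the share over all genes was 31.8%. The calls of Cnp among the OL markers and of Aldh1l1 among the astrocyte markers were lost without flat replicate 3, micropillar replicate 1 or micropillar replicate 2 (and, for Cnp, without micropillar replicate 3), and with micropillar replicates 1 and 2 summed, with a highest adjusted p of 0.096 and 0.084. The part of these markers in the levels of the 3 neuropeptide and granin genes was not tested either.

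Few other genes of the secretory granule pathway could be followed, because the files carry identifiers without symbols. An identifier was at hand for 2 of 24 neuropeptide precursors (Calcb and Gal), 1 of 7 granins (Scg2), 1 of 18 genes of granule exocytosis (Rab3b) and 0 of the 9 prohormone processing enzymes, 11 receptors of these peptides and 14 cyclic AMP-responsive or activity-linked transcription factors listed, so none of these lists is described as a whole. Rab3b, a small GTPase of regulated exocytosis, was at 14.4, 8.89 and 12.9 CPM in the flat libraries and at 67.5, 60.7 and 35.6 CPM in the micropillar libraries. It thus moved in the opposite direction to the 3 granule cargo genes and rose from 12.1 ± 2.85 to 54.6 ± 16.8 CPM (log2 fold change 2.18, SE 0.25, edgeR adjusted p = 0.0012, with Benjamini-Hochberg adjustment). Rab3b is 1 of the genes that the study chose to list from these samples, so its direction is not independent evidence.

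Position in the genome was not used to choose the genes. Within 500 kb on either side of the 3 genes, the annotation of the files holds 35 other genes, of which 22 were tested. In this neighbourhood 1 gene was lower and 1 was higher by the limits used for all genes, and an adjusted p under 0.05 was found for 6 of 22, 3 of them lower and 3 higher, close to the 26.7% of all genes tested. This number was 2 without micropillar replicate 2 or 3 and 3 without micropillar replicate 1, where the share over all genes also fell, to 10.1%, 16.9% and 11.0%. The median log2 fold change was −0.59 for the 4 tested genes around Calcb, −0.05 for the 4 around Scg2 and 0.35 for the 14 around Gal.

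The nearest tested gene downstream of Calcb, 22.8 kb away, had a log2 fold change of −0.05 (SE 0.15, edgeR adjusted p = 0.83). The gene 82.7 kb upstream of Calcb, ENSRNOG00000011130, fell by 0.94 on the log2 scale (SE 0.24, edgeR adjusted p = 0.018), and this call was lost without micropillar replicate 2 or 3 and with micropillar replicates 1 and 2 summed (highest adjusted p = 0.088). RefSeq (GRCr8) places Calca, a listed neuropeptide precursor, as the nearest protein-coding gene on the lower-coordinate side of Calcb. No identifier was paired with Calca, so whether it is ENSRNOG00000011130 was not tested. In the direction upstream of Scg2, ENSRNOG00000049873 lies 144 kb away, and it fell by 2.83 on the log2 scale (SE 0.43, edgeR adjusted p = 0.0025) on 39 to 81 flat and 6 to 16 micropillar counts. It was not tested where at least 10 counts were required in every library, and its adjusted p was under 0.05 in all other settings.

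The gene closest to Gal, 1.86 kb away, had 1 to 14 counts in a library and was not tested. The second, ENSRNOG00000014254 at 23.2 kb downstream, rose by 1.09 on the log2 scale (SE 0.16, edgeR adjusted p = 0.0024), opposite to Gal, with an adjusted p of at most 0.017 over the alternatives. On the upstream side of Gal, the nearest gene at 37.8 kb had a log2 fold change of −0.14 (SE 0.11, edgeR adjusted p = 0.35). The lower levels of Gal and Calcb were therefore not shared by the closest tested genes on the downstream side. On the upstream side, the closest tested genes of Calcb and Scg2 were lower (log2 fold change −0.94 and −2.83, with the limits given above). That of Gal was at −0.14.

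**Figure D4:**
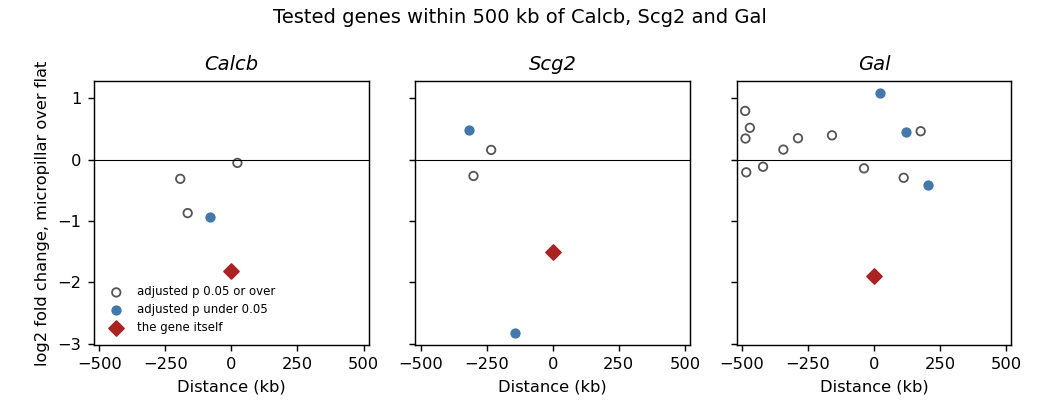
log2 fold change (micropillar over flat) of the 22 tested genes within 500 kb of Calcb, Scg2 or Gal against their distance in kb, with distances in the reading direction of each gene (negative, upstream). Diamonds at 0 kb are the 3 genes, filled circles are neighbours with an adjusted p under 0.05 (6 of 22) and open circles are the others.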

How the data were processed

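The authors trimmed the reads, mapped them to Rnor6.0 with STAR 2.5.2b and counted uniquely mapped reads in exons with featureCounts (Subread 1.5.2), and deposited raw counts per gene for 6 libraries and a table of rlog (log2) values. Whether counting used the strand is not given in the sources used here. From the counts, CPM, TPM and log2 fold changes were computed in R 4.3.3, where edgeR 4.0.16 served for the filter (filterByExpr), the TMM scaling and the quasi-likelihood test (glmQLFit, glmQLFTest) without a block, and p-values were adjusted by Benjamini-Hochberg over 13163 genes. The biological coefficient of variation was 0.154. The genes, lists and promoter letters were chosen with earlier results of these data known. The files pair no identifier with a symbol, and 76 symbols were assigned by matching recomputed DESeq2 1.42.0 values to those that the study lists beside symbols. Log2 fold changes had to match within 1e-05 and log10 adjusted p within 0.02. For the study's panel of cell type markers, normalized counts had to match within a relative 1e-05 instead. All 76 lie on the chromosome that RefSeq gives. The values of 1 of them, a listed marker, are not reported here, and it was left out of the summed level and counts of its list. Named genes are the 3 genes, list and marker genes with an identifier, the 3 most alike genes and at most 2 unnamed neighbours in each direction. Alternatives were other scalings, filters, DESeq2, limma-voom (limma 3.58.1), a replicate block, each library left out and micropillar replicates 1 and 2 summed. No promoter of Calcb and no protein sequence was used here.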

Additional observations from a re-analysis of the deposited data

How the results depend on the processing

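Calcb, Scg2 and Gal were lower on micropillars in each of the 14 alternatives to the analysis reported, with log2 fold changes of −1.95 to −1.73, −1.64 to −1.43 and −2.03 to −1.75. Library totals in place of TMM gave −1.95 for Calcb and −1.64 for Scg2, beyond the spread of the replicates. Leaving out 1 library gave −1.87 to −1.73 for Calcb, −1.55 to −1.43 for Scg2 and −2.01 to −1.75 for Gal, within that spread. The numbers over all genes depended more on the setting: the lower genes were 722 with no filter on low counts and 254 with micropillar replicates 1 and 2 summed, against 415. With 1 library left out they were 221 to 775 (775 without flat replicate 1, 221 without flat replicate 3, 243 without micropillar replicate 1 and 226 without micropillar replicate 2), and the higher genes 302 (without flat replicate 3) to 745 (without flat replicate 1), against 475. Within 500 kb of the 3 genes, library totals gave 2 lower and 0 higher neighbours, and 0 were lower where 10 counts were required in every library. With 1 library left out there were 1 to 2 lower (2 without flat replicate 1 or micropillar replicate 1) and 0 to 3 higher neighbours (0 without micropillar replicate 1, 3 without flat replicate 2), against 1 of each. Over all genes tested, 775 of 13626 were lower without flat replicate 1 and 678 of 13341 were higher without flat replicate 2. Without micropillar replicate 1, 243 of 13504 were lower and 370 higher. The cause was not tested. The deviations of same-numbered libraries correlated at 0.072, −0.076 and 0.0021, so the numbers were not taken to pair the samples. A replicate block gave 409 lower and 528 higher genes and log2 fold changes of −1.82, −1.50 and −1.91 for Calcb, Scg2 and Gal. With the block, 4 neighbours had an adjusted p under 0.05 in place of 6, where the share over all genes was 25.2%. Mog and Gja1, markers of OLs and astrocytes, then rose (edgeR adjusted p = 0.027 and 0.019). Mog also rose by the Wald test of DESeq2 (adjusted p = 0.047). Without flat replicate 1 and with no filter on low counts, Mog and Mobp both rose, giving 7 OL markers in place of 5. In these 2 settings 33.9% and 19.1% of all genes had an adjusted p under 0.05. With no filter on low counts Gja1 rose as well (edgeR adjusted p = 0.00081), giving 4 astrocyte markers that rose in place of 3. Depth limits Gal on micropillars (59 to 94 counts) and Eomes (5 to 7 counts).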
